A study of Mus musculus with 8 samples.

Results

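The genes described here are 40 nucleolar factors that build ribosomes, chosen by name with earlier results of these data known. A member was measured where a probe set of the array carried its symbol alone in the platform annotation, which held for 38 of the 40, all of them bright enough to be tested among 14267 genes. Npm3 had no such probe set. The probe set of Mrto4 also carries the symbols of 2 pseudogenes, so that Mrto4 was not tested.

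Ribosomes are made in the nucleolus, where RNA polymerase I transcribes one long precursor RNA. Small nucleolar ribonucleoproteins (snoRNPs) of the box C/D kind guide methylation of that precursor and those of the box H/ACA kind guide conversion of its uridines to pseudouridine. The small subunit processome and the large subunit assembly factors then fold, cut and trim the precursor into the ribosomal RNAs. Growing embryonic stem cells use this pathway heavily, and the Myc family of transcription factors is known to activate many of its genes.

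The cells were mouse embryonic stem cells of strain 129X1 x 129S1 under standard conditions, and their RNA was hybridised to 8 Affymetrix arrays, 2 in each of 4 groups. In the shTop1 coculture and shp53 coculture groups, cells carrying a short hairpin against Top1 or against p53 shared a dish with mock cells for 4 days at 1:4, while the cells were still growing. In the shTop1 mix and shp53 mix groups, the controls, each kind of cell had 4 days in a dish of its own before the RNAs were combined at 1:4. All 4 groups therefore hold a knockdown and 20% knockdown material at the start, and none is mock cells alone. The comparison of coculture with mix asks what living together changes, apart from the effect of the knockdown itself. The labels call the arrays biological replicates without saying whether they were separate cultures, or whether mock RNA was shared between mixes. The spread behind each p-value is therefore that of these samples, which may be technical. The share of knockdown cells at the end of coculture is not given in the labels, and in bulk RNA fewer cells of a kind and less RNA per cell cannot be told apart.

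Mean signal was 812 to 896 per array. Stem cell markers were bright on all arrays: the normalized signals of the 9 genes tested, Pou5f1, Nanog and Sox2 among them, summed to 110786 to 118399.6. Top1 signal was 5109.6 to 5316 on the 4 shTop1 arrays and 5456 to 5886 on the 4 shp53 arrays, a log2 difference of -0.11 ± 0.066 (SE) with an adjusted p of 0.999. Of 8 fibroblast markers, Col3a1, Dcn, Lum and Postn were too dim to be tested, and the 4 others were above 0 in the coculture comparison. These 4 summed to 1393 to 1577 on the mixes and 1465 to 1893 on the cocultures. All 5 primitive endoderm markers were above 0 as well, with sums of 8694 to 8899 on the mixes and 8894 to 10019.8 on the cocultures. The part of these markers in the members' differences was not tested. The first shTop1 coculture array stood apart from the other 7 on the second principal component.

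The promoters of the members were searched for CACGTG, the E-box that Myc family proteins bind, which reads the same on both strands. RefSeq windows on GRCm38.p6, running from 250 bases before to 50 bases after a start, matched 34 of the 40 members with 43 windows. The motif lay in 7 of the 43 (16.3%), against 2349 of all 32851 windows of the table (7.15%). Counted by gene, 7 of 34 members (20.6%) had it, against 8.09% of all genes and 17 of 84 (20.2%) other ribosome biogenesis genes. In the bases before the start alone it lay in 2 of 43 member windows (4.65%), against 6.02% of all, so that most of the members' matches lay after the start. Each match is printed with 30 bases, 5′ to 3′ on the gene's strand, the motif in capitals, because the coculture differences of these members are described further on.
Mybbp1a, chr11:72441347-72441376, plus strand: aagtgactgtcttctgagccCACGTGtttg
Nle1, chr11:82908355-82908384, minus strand: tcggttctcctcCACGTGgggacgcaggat
Nop2, chr6:125131811-125131840, plus strand: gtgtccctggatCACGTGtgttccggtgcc
Pes1, chr11:3963965-3963994, plus strand: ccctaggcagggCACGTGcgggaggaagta
Rrn3, far site, chr16:13780472-13780501, plus strand: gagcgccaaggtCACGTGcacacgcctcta
Rrn3, near site, chr16:13780639-13780668, plus strand: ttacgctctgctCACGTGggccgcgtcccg
Utp20, chr10:88826765-88826794, minus strand: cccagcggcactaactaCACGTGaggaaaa
Wdr43, chr17:71616220-71616249, plus strand: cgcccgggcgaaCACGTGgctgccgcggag

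The motif began 60 bases before the start in Nop2, at 215 and 48 bases before it in Rrn3, and between base 3 and base 41 after it in Pes1, Wdr43, Nle1, Utp20 and Mybbp1a. The 4 members whose cocultures and mixes do not overlap in signal are Nop58, Nolc1, Wdr43 and Dkc1. The 120 bases before their starts, given next for comparison, hold no CACGTG.
Nop58, chr1:59684886-59685005, plus strand: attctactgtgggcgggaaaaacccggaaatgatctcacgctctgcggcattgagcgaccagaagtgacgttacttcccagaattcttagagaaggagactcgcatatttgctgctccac
Nolc1, chr19:46075727-46075846, plus strand: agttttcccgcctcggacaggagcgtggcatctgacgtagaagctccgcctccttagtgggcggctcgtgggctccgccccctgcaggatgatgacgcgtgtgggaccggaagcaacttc
Wdr43, chr17:71616095-71616214, plus strand: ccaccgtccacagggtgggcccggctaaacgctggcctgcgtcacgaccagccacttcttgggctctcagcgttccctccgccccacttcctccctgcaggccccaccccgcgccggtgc
Dkc1, chrX:75095734-75095853, plus strand: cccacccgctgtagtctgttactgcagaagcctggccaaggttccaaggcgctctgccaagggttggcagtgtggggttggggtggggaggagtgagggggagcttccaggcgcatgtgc

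In coculture against mix, averaged over both knockdowns, 30 of the 38 members (78.9%) had a log2 difference below 0, against 44.7% of all genes tested. The differences were small: the members' median was -0.10 against 0.02 over all genes, and the range ran from -0.33 for Ddx21 to 0.14 for Pes1, with SEs of 0.064 to 0.15. No member passed an adjusted p of 0.05 in limma's test, nor did any other gene (0% of 14267), and the members' adjusted p ran from 0.382 to 0.996. At an unadjusted p under 0.05, 3 members were lower (Ddx21, Nop58 and Nle1, 7.89%), against 4.63% of genes, and 0 were higher, against 7.09% of genes. With trended and robust variances 13 members were lower, against 5.97% of genes, and 1 was higher, against 8.45%, still with 0 members past the adjusted threshold. Leaving out 1 array gave between 0 lower members, as without the second shTop1 mix (2.62% of genes), and 6, without the second shp53 coculture (5.06% of genes). All 4 cocultures lay below all 4 mixes for 3 members (3.35% of genes) and above them for 1 (5.75% of genes). The gap between members and all genes was smaller with arrays centred on their medians, where 21 of 38 (55.3%) were below 0 against 35.5% of genes.

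**Figure D1:**
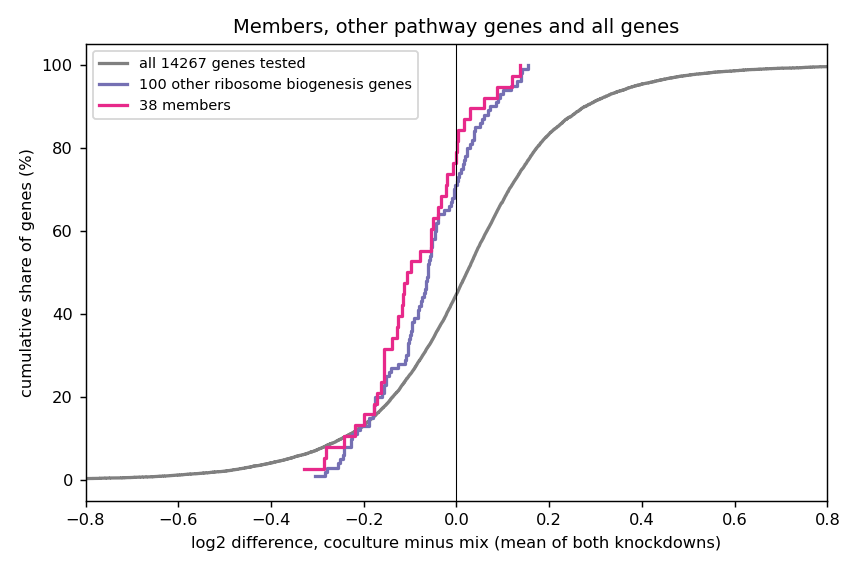
Cumulative share of genes (%) against the log2 difference of coculture minus mix, averaged over both knockdowns, for the 38 members, the 100 other ribosome biogenesis genes and all 14267 genes tested. The members' curve lies to the left, with 78.9% of members below 0 against 44.7% of all genes.

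The box C/D snoRNP is built on Nop58 and Nop56, a related pair of scaffold proteins, with the methyltransferase fibrillarin (Fbl); Rrp9 binds the snoRNA of the processome. Nop58 signal was 8137 and 8122 in the shTop1 mixes, 7311 and 6449 in the shTop1 cocultures, 8071 and 7787 in the shp53 mixes, and 6391 and 7492 in the shp53 cocultures. Every coculture was below every mix, with a log2 difference of -0.22 ± 0.086 (SE), an unadjusted p of 0.0432 and an adjusted p of 0.409. Nop56 signal was 8066 and 7840.4, then 7123 and 7443, then 8518 and 7614, then 6427 and 7802, in the same order of groups. The second shp53 coculture lay among the mixes of Nop56, and the log2 difference was -0.16 ± 0.091 (SE, adjusted p 0.539). Without the first shp53 coculture it was -0.09. A further Nop56 probe set gave -0.25. Fibrillarin went the other way, at 0.09 ± 0.094 (SE), and Rrp9 was at 0.003. The role's median was -0.08, with 2 of 4 members below 0.

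The box H/ACA snoRNP consists of the pseudouridine synthase dyskerin (Dkc1) with Nhp2, Nop10 and Gar1, and Nolc1 is a nucleolar chaperone of snoRNPs. Nolc1 signal was 7576 and 7128 in the shTop1 mixes, 6325 and 6548 in the shTop1 cocultures, 6799 and 7036 in the shp53 mixes, and 6056 and 6678 in the shp53 cocultures. All 4 cocultures were below all 4 mixes, with a log2 difference of -0.16 ± 0.072 (SE, adjusted p 0.458). Dkc1 was the member with the opposite separation. Its signal was 12807 and 12561 in the shTop1 mixes, 13806 and 14896 in the shTop1 cocultures, 13067 and 13534 in the shp53 mixes, and 13556 and 14265 in the shp53 cocultures. The lowest coculture and the highest mix, both of shp53, were nearly level, and the log2 difference was 0.12 ± 0.068 (SE, adjusted p 0.526). The other Dkc1 probe sets gave -0.003 and -0.25, so that the sign rests on the probe set used. Nhp2, Nop10 and Gar1 had log2 differences between -0.007 and 0.02, and the role's median was -0.001.

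**Figure D2:**
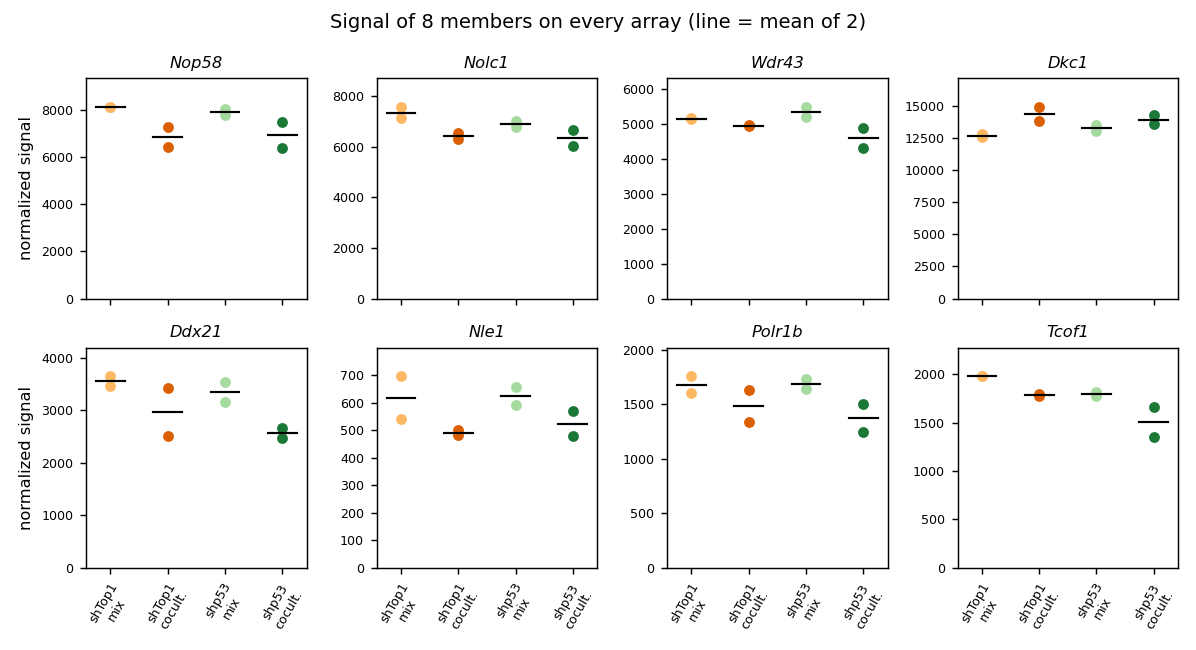
Normalized signal (linear scale from 0) of Nop58, Nolc1, Wdr43, Dkc1, Ddx21, Nle1, Polr1b and Tcof1 on each array, by group, with a line at the mean of the 2 replicates. The cocultures of Nop58, Nolc1 and Wdr43 are below all mixes, those of Dkc1 above, and the other 4 overlap.

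Among the factors of RNA polymerase I, 5 of 7 were below 0 and the median was -0.05. Polr1b, the second largest subunit of the enzyme, had signals of 1607 and 1757 in the shTop1 mixes, 1633 and 1338 in the shTop1 cocultures, 1738 and 1644 in the shp53 mixes, and 1247 and 1501 in the shp53 cocultures. Only the first shTop1 coculture reached the range of the mixes, and the log2 difference was -0.24 ± 0.10 (SE, adjusted p 0.442). Tcof1 encodes treacle, a nucleolar scaffold that works with the polymerase. Its signal was 1980.2 on both shTop1 mixes, 1802 and 1777 in the shTop1 cocultures, 1774 and 1818 in the shp53 mixes, and 1356 and 1665 in the shp53 cocultures. Within each knockdown the cocultures of Tcof1 were below the mixes, and the log2 difference was -0.20 ± 0.086 (SE, adjusted p 0.441), or -0.13 without the first shp53 coculture. The largest subunit Polr1a (-0.05), Polr1c (-0.08), which RNA polymerase III shares, and the initiation factor Rrn3 (-0.03) were closer to 0. The promoter-binding activator Ubtf was at 0.03 and Mybbp1a, a nucleolar Myb-binding protein, at 0.06.

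In the small subunit processome and its assembly factors, 4 of 5 members were below 0 and the median was -0.11. Wdr43, a WD-repeat subunit of the processome, had signals of 5181 and 5146 in the shTop1 mixes, 4953 and 4969.9 in the shTop1 cocultures, 5493 and 5203 in the shp53 mixes, and 4318 and 4880.3 in the shp53 cocultures. Its groups did not overlap, with a log2 difference of -0.14 ± 0.073 (SE, adjusted p 0.502). Utp20, a large scaffold of the processome, had signals of 3329 and 3139 in the shTop1 mixes, 2805 and 2998 in the shTop1 cocultures, 3314 and 3373 in the shp53 mixes, and 3009 and 3352 in the shp53 cocultures. The second shp53 coculture of Utp20 lay within the mixes, and the log2 difference was -0.11 ± 0.074 (SE, adjusted p 0.573). Nop14 was at -0.10, Noc4l at -0.12 and Rrp12, a factor in export of the small subunit, at 0.002.

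Large subunit assembly was the role with the most members, and 12 of its 13 were below 0, with a median of -0.13. Nle1 (Notchless), needed for release of factors from the maturing large subunit, had signals of 542 and 696 in the shTop1 mixes, 499 and 484 in the shTop1 cocultures, 590.1 and 657 in the shp53 mixes, and 479 and 568 in the shp53 cocultures. Only the second shp53 coculture reached the range of the mixes, and the log2 difference was -0.28 ± 0.11 (SE), with an unadjusted p of 0.0441 and an adjusted p of 0.413. Rrp1b, a nucleolar protein of large subunit processing, had signals of 2062 and 2260.0 in the shTop1 mixes, 1747 and 1857 in the shTop1 cocultures, 2023 and 2035 in the shp53 mixes, and 1797 and 2032 in the shp53 cocultures. Its second shp53 coculture was level with the shp53 mixes, and the log2 difference was -0.17 ± 0.078 (SE, adjusted p 0.455). Rrs1, which brings the 5S particle to the large subunit, had the second largest difference of all members, -0.29, with the largest SE, 0.15. The other Rrs1 probe set gave -0.11, and without the second shTop1 coculture the difference was -0.16. The helicase Ddx18 (-0.13), Noc3l (-0.16), Nop16 (-0.16), Ppan (-0.13) and Nip7 (-0.11) lay near the role's median, and Nop2, an rRNA methyltransferase, (-0.06) and Noc2l (-0.02) nearer 0. The PeBoW complex of 3 proteins processes the large subunit RNAs. On the probe sets used, these proteins did not go together: Bop1 was at -0.11, Wdr12 at -0.02 and Pes1 at 0.14. The sign of Pes1 rests on the probe set used, and with the mean of all its probe sets Pes1 was at -0.27. The other Bop1 probe set gave 0.10.

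All 4 abundant nucleolar proteins were below 0. The RNA helicase Ddx21, which acts in both polymerase I transcription and rRNA processing, had signals of 3473 and 3648 in the shTop1 mixes, 3423 and 2506 in the shTop1 cocultures, 3537 and 3154 in the shp53 mixes, and 2662 and 2471 in the shp53 cocultures. The first shTop1 coculture was just below its own mixes and within those of shp53, and the other 3 cocultures were below every mix. The log2 difference was -0.33 ± 0.12 (SE), a ratio of 0.796, with an unadjusted p of 0.0307 and an adjusted p of 0.382. A second Ddx21 probe set gave -0.27 ± 0.079 (SE). Without the second shTop1 coculture the difference was -0.22, and without the first it was -0.44. Gnl3 (nucleostemin), a nucleolar GTPase of stem and progenitor cells, had signals of 10007 and 9069.7 in the shTop1 mixes, 8746 and 7779 in the shTop1 cocultures, 9783 and 8746 in the shp53 mixes, and 8239 and 8437 in the shp53 cocultures. The highest coculture of Gnl3 equalled the lowest mix, and the log2 difference was -0.18 ± 0.083 (SE, adjusted p 0.461). Nucleolin (Ncl, -0.06) and nucleophosmin (Npm1, -0.04) were among the brightest probe sets of the array, at the 99.73 and 99.96 percentiles of mean signal. Both were above 0 when arrays were centred on their medians (0.11 and 0.16), where the median over all genes was 0.068.

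**Figure D3:**
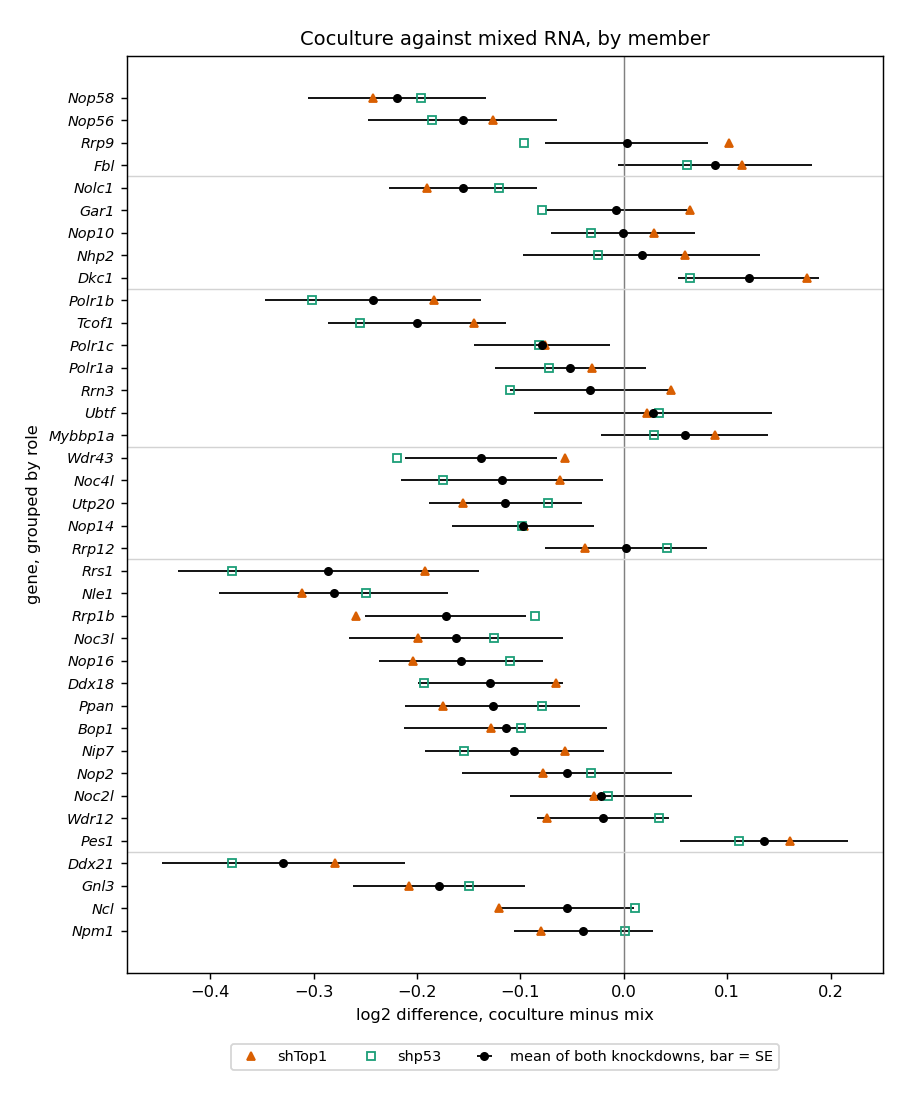
Log2 difference of coculture minus mix for each of the 38 members, grouped by role, with the mean of both knockdowns and its SE (black), shTop1 (triangles) and shp53 (squares). 30 of the 38 means lie left of 0, from -0.33 for Ddx21 to 0.14 for Pes1.

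The coculture difference was then taken within each knockdown, with the spread of each gene still estimated over all 8 arrays. In shTop1, 28 of 38 members (73.7%) were below 0, against 44.4% of genes, with a median of -0.08; with arrays centred on their medians it was 21, against 36.8% of genes. No gene passed the adjusted threshold (0%), and the smallest adjusted p of a member was 0.608. No member had an unadjusted p under 0.05, against 3.08% of genes lower. With trended and robust variances 5 members were lower, against 4.04% of genes, and 1 was higher, against 5.62%. Both cocultures were below both mixes for 18 members, against 16.9% of genes, and above them for 3, against 24.5%. The smallest p belonged to Rrp1b, with a log2 difference of -0.26 ± 0.11 (SE, adjusted p 0.608), followed by Nop58 with -0.24 ± 0.12 (SE, adjusted p 0.651).

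In shp53, 29 members (76.3%) were below 0, against 47% of genes, with a median of -0.09; with arrays centred on their medians it was 25, against 37.9% of genes. No gene passed the adjusted threshold (0%), and the smallest adjusted p of a member was 0.737. No member had an unadjusted p under 0.05, against 2.99% of genes lower. Fitted on the shp53 arrays alone, 2 members were lower, against 2.91% of genes, and 0 higher, against 3.22%. With trended and robust variances 6 were lower, against 3.27% of genes, and 0 higher, against 4.39%. Both cocultures were below both mixes for 17 members, against 17.1% of genes, and above them for 1, against 20.9%. The smallest p belonged to Ddx21, with a log2 difference of -0.38 ± 0.17 (SE, adjusted p 0.737), followed by Wdr43 with -0.22 ± 0.10 (SE, adjusted p 0.749). Without the first shp53 coculture the members' median was -0.043, and without the second it was -0.14. Across both knockdowns 24 members were below 0 in each, against 27.3% of genes, 5 were above 0 in each and 9 had opposite signs. Whether the mixes shared mock RNA is not given in the labels, so the pair of comparisons may not be independent.

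The difference between the coculture effects of the knockdowns, shTop1 minus shp53, had a median of 0.02 over the members, with 21 above 0 and 17 below. No gene passed (0%), and no member had an unadjusted p under 0.05, against 2.63% of genes higher and 1.68% lower. Rrp9 had the smallest p, with 0.20 ± 0.16 (SE). Its signal was 1348 and 1560.5 in the shTop1 mixes, 1548 and 1567 in the shTop1 cocultures, 1322 and 1406 in the shp53 mixes, and 1239 and 1311 in the shp53 cocultures. Rrp9 was thus lower in the shp53 cocultures than in the shp53 mixes, while the shTop1 groups were spread by the first mix. Rrp1b came next with -0.17 ± 0.16 (SE). The adjusted p of both was 1.000.

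Between the knockdowns, over mixes and cocultures together, the members' median was 0.003, with 20 above 0 and 18 below. This split moved with the scaling: 36 were above 0 and 2 below with arrays centred on their medians, where 33.6% of genes were below 0, and 24 above and 14 below with the authors' scaling alone, where 55.1% of genes were below 0. No gene passed (0%), and no member had an unadjusted p under 0.05, against 2.40% of genes higher and 2.29% lower. No member had all 4 shTop1 arrays above or below all 4 shp53 arrays, against 1.02% and 1.07% of genes. The smallest p belonged to Rrp9, with 0.19 ± 0.079 (SE), and to Tcof1, with 0.19 ± 0.086 (SE), both with an adjusted p of 0.999. These signals stand above in full: the lowest shTop1 arrays of both genes lie among the shp53 arrays.

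**Figure D4:**
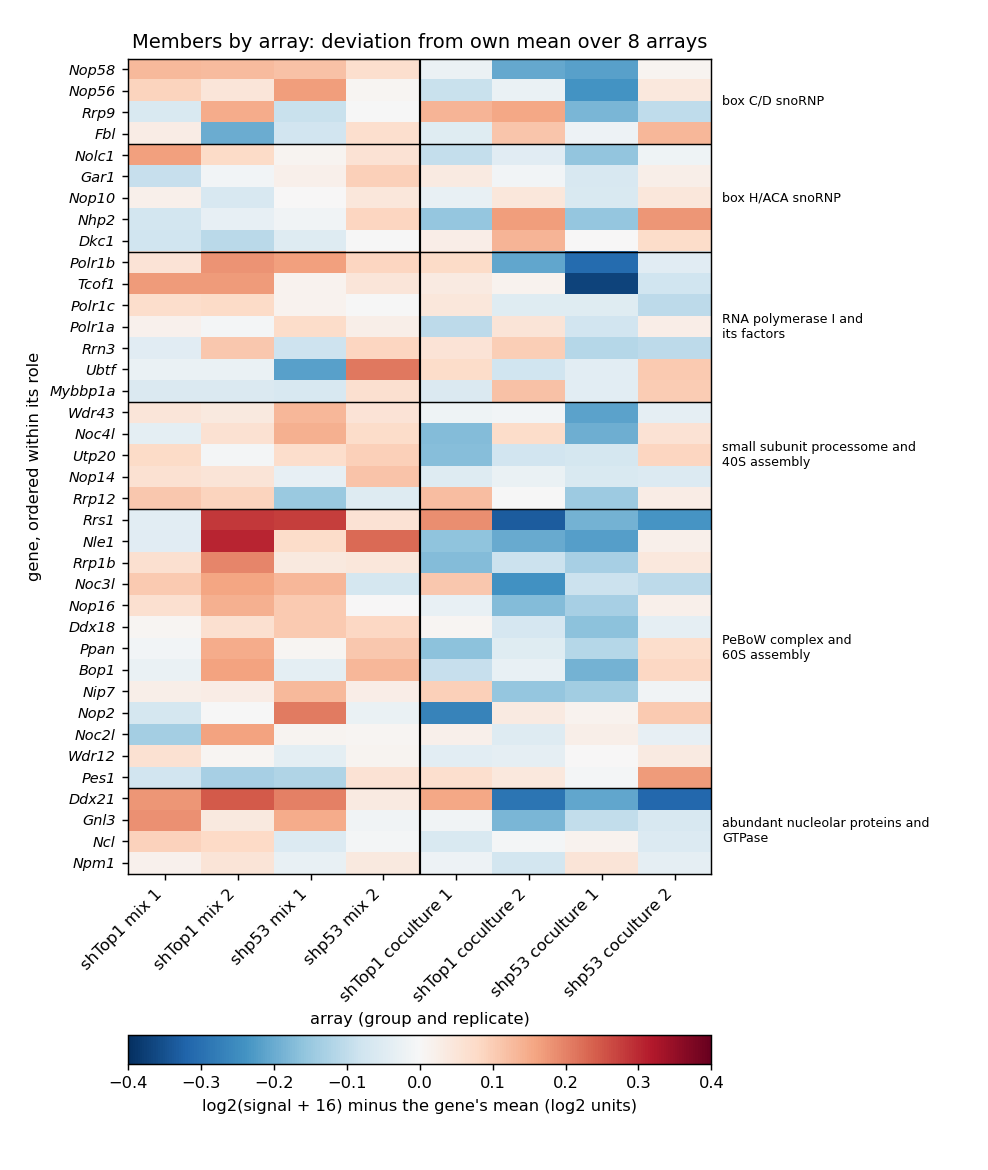
Deviation of each member's log2(signal + 16) from its own mean over the 8 arrays (colour, log2 units), with arrays as columns and members, grouped by role, as rows. The first shp53 coculture is the lowest array for 13 of the 38 members, and the second shTop1 mix the highest for 13.

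Array by array, the median deviation of the members from their own means was 0.022 and 0.063 in the shTop1 mixes, -0.022 and -0.034 in the shTop1 cocultures, 0.013 and 0.051 in the shp53 mixes, and -0.11 and 0.020 in the shp53 cocultures. The 4 mixes were thus above 0 and 3 of the 4 cocultures below, while the second shp53 coculture lay among the mixes. The first shp53 coculture was the lowest array for 13 members and the highest for 0, and the second shTop1 mix was the highest for 13. The share of values under the pseudocount, 21.1% to 25.6% per array, and the Actb 3′/5′ log2 ratio, 0.463 to 0.677, did not set that coculture apart, at 24.6% and 0.508. Some summed marker levels did. That array had the lowest stem cell sum, 110786 against 113803 to 118399.6 on the other arrays. It also had the lowest sum of 4 neural markers, 807 against 920.1 to 1027. Its primitive endoderm sum was the highest, 10019.8 against 8694 to 9929, though the second shTop1 coculture, at 9929, came close. The fibroblast sum, 1764 against 1393 to 1893, and the mesoderm sum, 117 against 106 to 191, did not set it apart. The part of these markers in the members' values on that array was not tested. The median deviation of the large subunit members ranged from -0.13 in that array to 0.15 in the second shTop1 mix.

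Members varied together to a moderate degree over the 8 arrays. The median Pearson correlation between pairs was 0.244, with 495 of 703 pairs above 0, and the correlation of a member with the median of the others was above 0 for 35 of 38, with a median of 0.471. It was highest for Bop1 (0.89), Nop58 (0.85) and Nle1 (0.85) and below 0 for Fbl (-0.19), Pes1 (-0.20) and Dkc1 (-0.43). These 3 are also the members with the highest coculture differences. Both values of a gene come from the same probe set and arrays, so they are not separate observations. With the mean of all probe sets, the coculture differences of Pes1 and Dkc1 were -0.27 and -0.043. Since arrays share groups and normalization, the correlations are a description.

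Of the 38 members, 26 had more than 1 probe set. At the level of probe sets, 60 of 75 above the filter (80.0%) were below 0, against 48.3% of all 26118 probe sets. An unadjusted p under 0.05 was reached by 9 lower ones, from 8 members, against 5.15% of all, and by 0 higher ones, against 5.61%, and 0 passed after adjustment. All probe sets were below 0 for 14 members, above 0 for Fbl, and of mixed sign for 11. The widest gap was in Pes1. Its brighter probe set was at 0.14, while a dimmer one had signals of 141 and 162 in the shTop1 mixes, 99 and 81 in the shTop1 cocultures, 146 and 171 in the shp53 mixes, and 87 and 98 in the shp53 cocultures. The dimmer set's cocultures were all below its mixes, with a log2 difference of -0.67 ± 0.11 (SE), an unadjusted p of 0.000659 and an adjusted p of 0.377. Nucleolin showed a like gap, from -0.06 in the brightest set to -0.44 ± 0.15 (SE) in another. That set had signals of 2038 and 1993 in the shTop1 mixes, 1792 and 1236 in the shTop1 cocultures, 1994 and 1749 in the shp53 mixes, and 1237 and 1526 in the shp53 cocultures. Dimmer sets of Wdr12 (-0.32) and Ubtf (-0.35) were also lower than the sets used (-0.02 and 0.03). Dimmer sets of 7 members lay above 0: Ncl (0.27 ± 0.33, SE), Bop1 (0.10 ± 0.16), Nop16 (0.09 ± 0.19) and Nip7 (0.08 ± 0.16), with Noc4l, Fbl and Ddx18 between 0.005 and 0.04. Which part of each transcript a probe set reads was not analysed here.

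**Figure D5:**
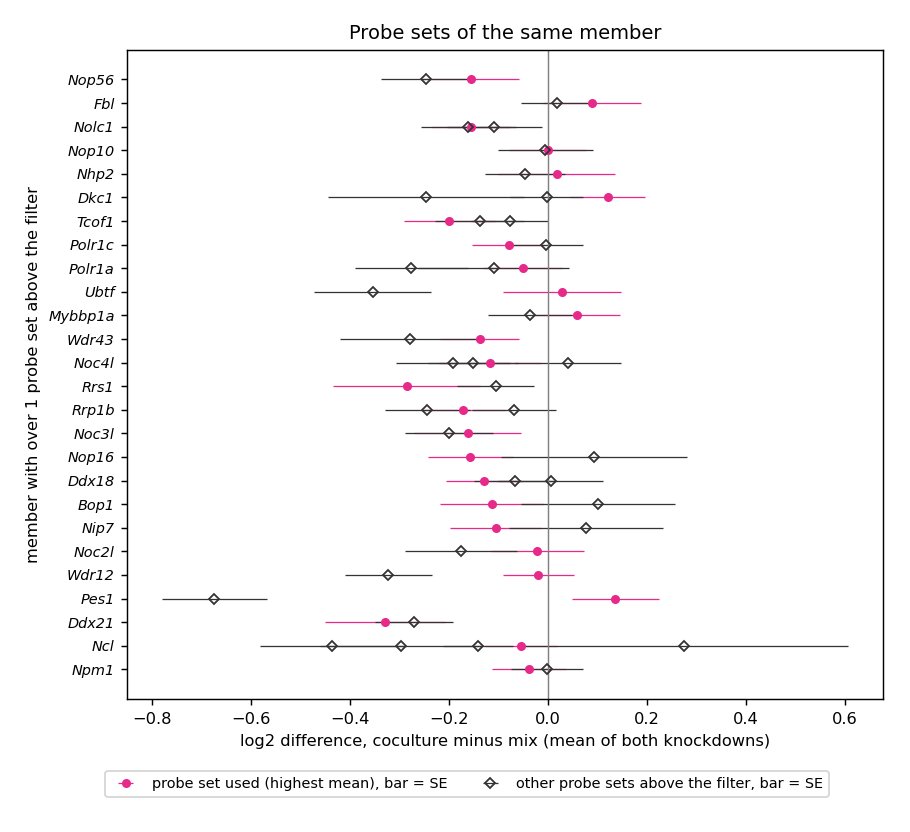
Log2 difference of coculture minus mix, averaged over both knockdowns, with SE, for every probe set above the filter of members that have more than 1; filled points are the sets used for the gene. Pes1 spans from -0.67 to 0.14. Counting also the members with 1 probe set, which are not drawn, 60 of the 75 member probe sets are below 0.

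A further list of 103 ribosome biogenesis genes leaves out the members and was also drawn up with earlier results of these data known. The 100 of them that were tested lay on the same side. Of these 71 (71.0%) were below 0, with a median of -0.06, and 9 were lower (4.63% of all genes) and 0 higher (7.09% of all genes) at an unadjusted p under 0.05. All 4 cocultures were below all 4 mixes for 17 of them (3.35% of all genes) and above for 1 (5.75% of all genes), and 0 passed the adjusted threshold, the smallest adjusted p being 0.354. Among small subunit genes the smallest p belonged to Imp4 (-0.26 ± 0.073, SE) and Wdr46 (-0.28 ± 0.096, SE), and among large subunit genes to Ftsj3 (-0.28 ± 0.085, SE), an rRNA methyltransferase, and Nifk (-0.23 ± 0.073, SE). All 7 further RNA polymerase I genes were below 0, led by Taf1a (-0.25) and Polr1e (-0.18). The snoRNP assembly genes had 4 of 6 below 0, with Ruvbl2 at 0.13 and Naf1 at -0.15. The nuclear exosome, which trims and degrades nuclear RNA, had 8 of 11 genes above 0, though its helicase Mtrex was at -0.19. Mphosph6 was at 0.15. In shTop1 alone 8 exosome genes were above 0, while in shp53 alone 4 were above 0 and 7 below.

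Myc and Mycn, the Myc family genes tested, were both below 0. Myc signal was 503 and 516 in the shTop1 mixes, 266 and 209 in the shTop1 cocultures, 389 and 497 in the shp53 mixes, and 170.2 and 482 in the shp53 cocultures. The second shp53 coculture of Myc lay among the mixes, and the log2 difference was -0.82 ± 0.31 (SE, unadjusted p 0.0373). After adjustment Myc did not pass the threshold of limma's test. Mycn signal was 8074 and 8066, then 7476 and 5886, then 7747 and 8142, then 5656 and 7210.3, in the same order of groups. All 4 cocultures of Mycn were below all 4 mixes, with a log2 difference of -0.30 ± 0.12 (SE, adjusted p 0.414). Of the 7 tested members with CACGTG in the promoter window, 5 were below 0, with a median of -0.06. Of the 25 with a window but without the motif, 21 were below 0, with a median of -0.11. Nle1 (-0.28) and Pes1 (0.14), near the low and high ends of the members on the probe sets used, both have the motif. With the mean of all its probe sets, Pes1 was at -0.27. The part of Myc and Mycn in the members' differences was not tested.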

How the data were processed

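The authors deposited 1 linear intensity for each probe set on each array, made with a tool not given in the sources used here. Without the highest and lowest 2%, the deposited intensities averaged about 500.003 on every array, a scaling by the authors as read from the values. Of 45101 probe sets, 34958 carried 1 gene symbol, 932 several and 9211 were not listed, giving 18194 named genes.

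Quantile normalization and log2(value + 16) followed, which understates fold changes of dim genes. Each gene was read from its brightest probe set and kept where the mean reached the 30th percentile, a signal of 22.1. The fit of group means used limma 3.58.1 on the 8 arrays together (R 4.3.3, lmFit and eBayes, 4 residual degrees of freedom). Tests were two-sided, with Benjamini-Hochberg adjustment over 14267 genes and a threshold of 0.05. The number of arrays limits the precision. The steps were tested on simulated data, for the mean coculture comparison. They recovered 24% of genes given a log2 change of 0.5, 56% at 1, 86% at 2 and 72% at -1. Changes as small as the members' differences in that comparison were not simulated.

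Members and gene lists were chosen with earlier results of these data known. Array-by-array signals are given for the 2 members of each role and of each other comparison with the smallest p, and for members whose groups did not overlap; of each other list, the 2 genes with the smallest p are named. The dimmer probe sets were named after their values were seen. Alternatives were a replicate block, median centring, the authors' scaling alone, other filters, pseudocounts and variances, other handling of probe sets, the compared groups alone, and leaving out each array. The targeted p53 gene is not reported here.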

Additional observations from a re-analysis of the deposited data

How the results depend on the processing

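No member passed the adjusted threshold in any comparison under any alternative. Members' medians are log2 differences throughout. Samples with the same replicate number did not deviate together (correlations of -0.00666 to 0.0506), and with the replicate block the median for the mean coculture comparison was -0.10, with 0 genes called and 2 members lower at an unadjusted p under 0.05, against 4.84% of genes.

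Centring arrays on their medians gave members' medians of -0.035 (mean of both knockdowns), -0.0081 (shTop1), -0.027 (shp53), 0.081 (difference of the effects) and 0.076 (shTop1 minus shp53). The medians over all genes moved up as well. In the same order they were 0.068, 0.076, 0.059, 0.0095 and 0.052, against 0.022, 0.030, 0.014, 0.0067 and -0.0036 without this centring. The centring turned the mean coculture difference of Gar1 (0.056), Ncl (0.11), Noc2l (0.040), Nop10 (0.10), Nop2 (0.0027), Npm1 (0.16), Polr1a (0.0018), Rrn3 (0.037) and Wdr12 (0.036). The authors' scaling alone gave a median of 0.077 for the difference of the effects and turned Ncl (0.054), Nop10 (0.045), Npm1 (0.11) and Rrp12 (-0.0055). The mean of all probe sets turned Dkc1 (-0.043), Nhp2 (-0.015), Pes1 (-0.27) and Ubtf (-0.16). Leaving out probe sets with the suffixes _s_at, _x_at and _a_at, which may read other genes or several transcripts of a gene, turned Mybbp1a (-0.036), Nhp2 (-0.046) and Noc4l (0.040). Trended and robust variances called 31 genes in the mean comparison, 3 in shTop1 and 1 in shp53, none of them members. The causes were not tested.

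Leaving out each array in turn, the members' median ranged from -0.12 to -0.074 (mean), from -0.14 to -0.043 (shp53) and from -0.037 to 0.081 (difference of the effects), the extremes of all 3 coming from leaving out one of the shp53 cocultures. Signs turned for Nop10 (-0.027 to 0.026), Rrp9 (-0.050 to 0.056), Gar1 (-0.030 to 0.015), Noc2l (-0.096 to 0.053), Rrn3 (-0.074 to 0.011), Rrp12 (-0.042 to 0.046), Nop2 (-0.13 to 0.021), Ubtf (-0.079 to 0.14) and Nhp2 (-0.064 to 0.10). The 13 members described array by array kept the sign of the mean coculture difference in each of these, Rrp9 excepted. Members were picked for that description by small p or by groups that do not overlap on the same arrays, which favours a kept sign. The share of member promoter windows with CACGTG was 4.65% before the start alone. With 2 arrays a group, the SE of a member's mean coculture difference was 0.064 to 0.15, which limits what could be told from 0.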

Other observations

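The stem cell markers did not move as a group in coculture against mix: 6 of 9 were above 0 and 3 below, with a median log2 difference of 0.06. The lower ones were Zfp42, a marker of naive stem cells also known as Rex1 (-0.28, adjusted p 0.390), Sox2 (-0.29, adjusted p 0.433) and Klf4 (-0.15). The higher ones were Nanog (0.20, adjusted p 0.517), Pou5f1 (0.11), Utf1 (0.09), Dppa5a (0.06), Esrrb (0.06) and Tdgf1 (0.06). Of 4 neural markers, Nes (0.10) and Pax6 (0.02) were above 0 and Tubb3 (-0.02) and Sox1 (-0.99, adjusted p 0.408) below. The Sox1 difference was -1.72 in shp53, where the second coculture had a signal of 3.36 against 53.8 in the first, and -0.27 in shTop1. Thy1, a surface protein of fibroblasts among other cells, was at 0.35 (adjusted p 0.345). None passed the adjusted threshold of limma's test.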
